A study of Homo sapiens with 6 samples.

Results

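The 33 genes described here are mouse autosomal imprinted genes, chosen by symbol from knowledge of imprinting, with earlier results of these data known. Of the 33, 28 were measured among the 21872 genes of the count table. H19, Airn, Meg3, Rian and Mirg, all long noncoding RNAs, were not analysed here. The measurements are bulk RNA-seq of MOC2, a cell line from a squamous cell carcinoma of the mouse mouth: 3 control libraries, from cells that received control lentiviral CRISPR/Cas9 particles, and 3 libraries from cells that received particles against HuR. HuR is the RNA-binding protein encoded by Elavl1. Per the labels' protocol 1 clone was isolated for the loss of HuR, so the knockout libraries may share a single origin. Their genotype label reads knockout and their titles read KD. Nothing in the labels says that the libraries of a group came from separate clones, so p-values measure only the spread between these libraries, which may be technical. The species label reads human, whereas the table's symbols and the title of the series are of mouse.

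An imprinted gene is transcribed mainly or wholly from 1 parental copy. For most of them, though not all, which copy is set by DNA methylation laid down in the egg or the sperm at a control region. Many imprinted genes lie in clusters, in which paternally and maternally expressed genes can share a control region, while others stand alone. Many imprinted genes act on fetal and placental growth, on metabolism or in the brain. Imprints can be lost, and the active copy can be silenced, in cultured and tumour cells. Counts per gene do not tell the parental copies apart, so the values below are total levels and say nothing about allelic use.

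The libraries as deposited held 16164136 to 21294330 counts. Levels are given as CPM, counts scaled to a library's TMM-adjusted total, in which 1 count was worth 0.0468 to 0.0612 CPM. Means are given ± SD over n = 3 libraries per group. Rows with 0 in control library 1 held only multiples of 11 and were divided by 11. This applied to 7 of the imprinted genes, Igf2, Ascl2, Snrpn, Ndn, Magel2, Nnat and Slc38a4, whose levels would be about 11 times higher as deposited. Elavl1 mRNA stood at 107, 120 and 117 CPM across control, against 116, 114 and 105 CPM across knockout libraries 1, 2 and 3 (adjusted p = 0.82), so its level does not check the labels. Knockout library 3 stood apart from the others: its log2 CPM correlated across genes at 0.927 and 0.932 with knockout libraries 1 and 2, which correlated with each other at 0.982. The 12 epithelial markers summed to 11599 to 14187 CPM in control and 5873 to 8703 CPM in knockout, sums carried mainly by the keratin genes Krt7, Krt8 and Krt19. Of the 11 epithelial markers tested 7 fell, 1 rose and 3 did not pass. Krt19 did not pass, at 2821 ± 156 CPM over control and 3358 ± 784 CPM over knockout (adjusted p = 0.342). Krt5 was too low to test, with 1, 1 and 0 counts in control and 42, 10 and 3 in knockout libraries 1, 2 and 3. Epcam fell 14.7-fold, Cdh1 13.4-fold and Cldn4 22.4-fold (adjusted p = 0.000645, 0.000694 and 0.00185), while Trp63 rose from no count in control to 28, 92 and 258 counts in knockout libraries 1, 2 and 3 after division by 11 (adjusted p = 0.0165). The 10 fibroblast markers summed to 3.73 to 8.47 CPM in control and 409 to 430 CPM in knockout. The knockout sums were carried mainly by Col3a1 and Col1a1, at knockout means of 226 and 146 CPM. Of the 4 fibroblast markers tested, Col1a1, Col3a1 and Pdgfrb rose, and Pdgfra did not pass (adjusted p = 0.595). Of the fibroblast markers 6 stayed under 1 CPM in every library. Endothelial and skeletal muscle markers summed to at most 1.96 and 1.41 CPM in any library, and leukocyte markers to at most 6.51 CPM outside knockout library 3, where they reached 36.9 CPM almost wholly through Cd68 (36.87 CPM). The part of these shifts in the results below was not tested. In bulk RNA, fewer cells with a transcript and less of it per cell cannot be told apart.

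Imprinted genes did not move together. Of the 28 genes, 1 had no count in any library, 11 had counts but too few to test, and 16 passed the filter on low counts. Of these 16, Igf2r, Asb4 and Plagl1 rose in knockout, Phlda2, Grb10, Mest and Ppp1r9a fell, and 9 did not pass the test (edgeR's quasi-likelihood test, adjusted over all 12293 genes, threshold 0.05). The share called, 43.8%, stands beside 35.7% over all genes tested. By direction, 3 of 16 were higher, against 20.3% of all genes, and 4 of 16 lower, against 15.4%. CPM of the 2 groups did not overlap for 9 of the 16, or 56.2%, against 57.6% of all genes. The median log2 fold change of the 16 was 0.12, and that of all genes tested 0.03. Under 13 alternative settings, which include leaving out each library, all 7 calls held except that of Ppp1r9a. A gene near 0 in one group entered the test only through the other, which limits what these numbers show. Without knockout library 3, 7 imprinted genes rose and 6 fell among 18 tested, and 48.3% of all genes were then called. Slc38a4, Peg12, H13 and Impact were then also higher, and Sgce and Cdkn1c also lower.

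**Figure D1:**
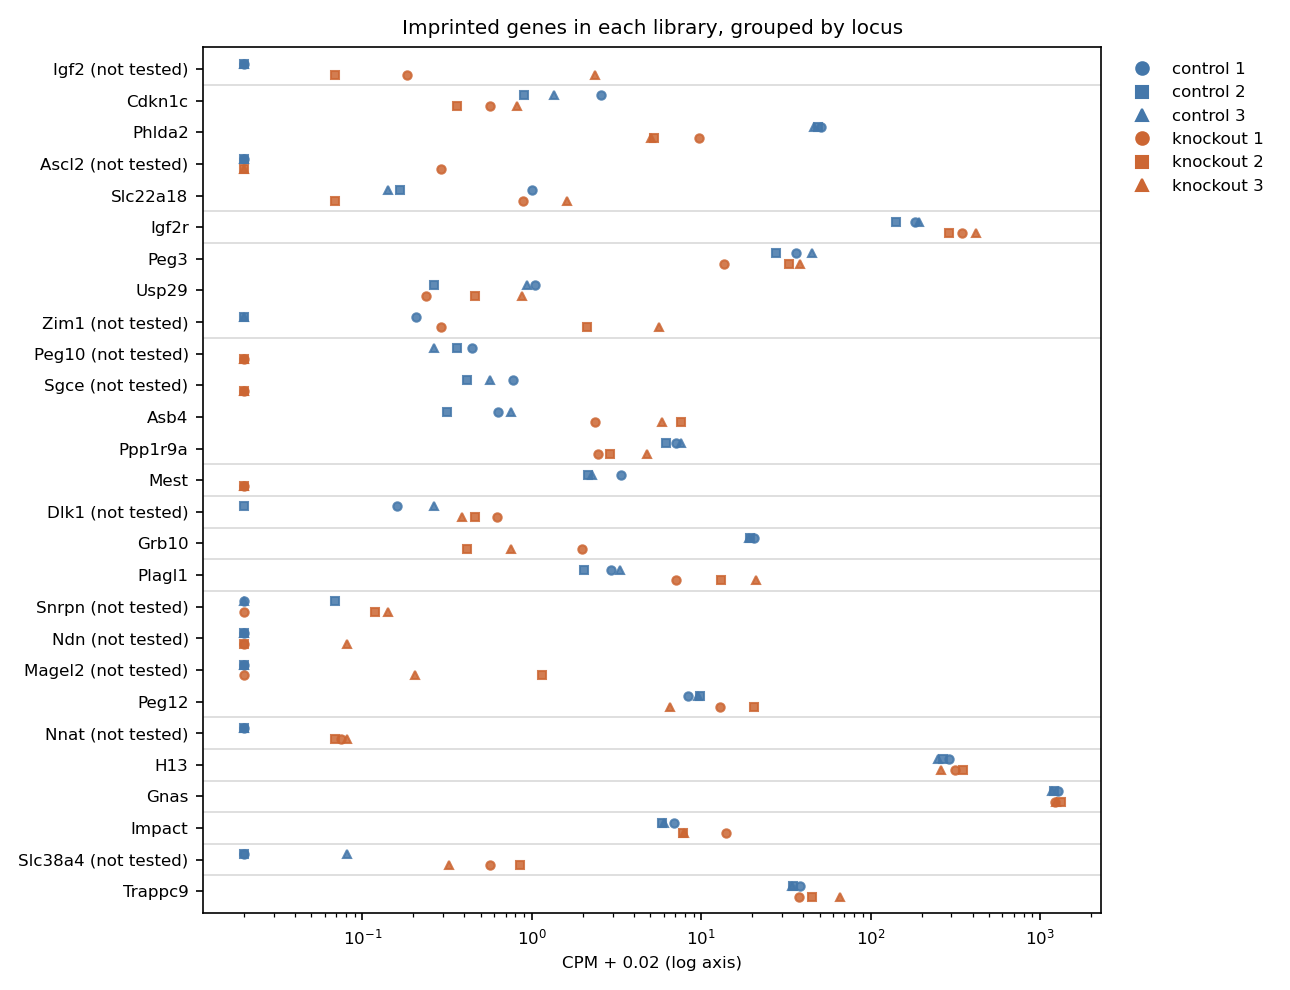
Level of each imprinted gene with a count, in CPM + 0.02 on a log axis, in control libraries (blue) and knockout libraries (orange); circles, squares and triangles are replicates 1, 2 and 3, and grey lines separate loci. Peg10, Sgce and Mest sit at the left edge, at 0 counts, in all 3 knockout libraries, while Igf2, Ascl2, Ndn, Magel2 and Nnat sit there in all 3 control libraries.

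Mest and the Peg10-Sgce pair, 3 paternally expressed genes, had no count in any knockout library. Mest, which encodes a protein of the alpha/beta hydrolase fold and marks mesoderm in the embryo, was at 3.32, 2.11 and 2.25 CPM in control libraries 1, 2 and 3 (71, 43 and 37 counts). It was at 0 in every knockout library, so the groups did not overlap. Against a floor of 3 counts over the knockout group, Mest was at least 47.7-fold lower (adjusted p = 0.00226). Without knockout library 2 the bound was 30.0-fold, since the knockout group's total was then smaller.

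Peg10 and Sgce lie head to head and share a control region. Peg10, a gene derived from a retrotransposon and needed for placental development, had 9, 7 and 4 counts in control libraries 1, 2 and 3, or 0.421, 0.344 and 0.243 CPM. Sgce, which encodes epsilon-sarcoglycan, had 16, 8 and 9 counts, or 0.749, 0.393 and 0.547 CPM. Neither had a count in a knockout library, and both were too low in control to pass the filter. Peg10 was at least 6.31-fold and Sgce at least 10.4-fold lower over the group, or 3.97-fold and 6.55-fold without knockout library 2. With no filter on low counts both passed (adjusted p = 0.0196 for Peg10 and 0.0113 for Sgce by edgeR). Their control levels were low, so the counts allow no larger bound.

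Asb4 and Ppp1r9a, maternally expressed neighbours of that pair in some tissues, went in opposite directions. Asb4, which encodes a substrate adaptor of a ubiquitin ligase, stood at 0.608, 0.295 and 0.729 CPM across control, against 2.34, 7.55 and 5.88 CPM across knockout libraries 1, 2 and 3. Every knockout library was above every control library. Asb4 rose 9.64-fold (log2 fold change 3.27, SE 0.576, adjusted p = 0.00671). Ppp1r9a, which encodes the actin-binding phosphatase regulator neurabin-1, stood at 7.11, 6.19 and 7.53 CPM across control, against 2.45, 2.89 and 4.78 CPM across knockout. The groups did not overlap, and Ppp1r9a fell 2.06-fold (log2 fold change -1.04, SE 0.314, adjusted p = 0.0411). Leaving out control library 1, 2 or 3 ended that call (adjusted p = 0.113, 0.0931 and 0.132), as did leaving out knockout library 1 or 2 (0.0831 and 0.106).

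Genes beside these loci varied. They were picked after the values of Mest, Peg10 and Sgce had been seen, except the imprinted ones among them. Casd1, next to Sgce, averaged 7.69 ± 0.572 CPM over control and 5.06 ± 0.889 CPM over knockout (adjusted p = 0.081). Bet1, which encodes a vesicle fusion protein, rose 1.77-fold to 18.6 ± 1.96 CPM (adjusted p = 0.0095). Dync1i1, a dynein intermediate chain beyond Asb4, fell 20.03-fold, from 26.1 ± 5.2 to 1.29 ± 1.16 CPM (adjusted p = 0.00317), and kept 72 counts over the knockout group. Calcr, the gene of the calcitonin receptor, had 1 count in control and 4, 24 and 10 in knockout libraries 1, 2 and 3, a ratio of 40.1 with an exact 95% counting interval of 6.78 to 1627. It was too low to test; it passed with no filter (adjusted p = 0.0183 by edgeR), and was tested and did not pass without control library 1, 2 or 3 (0.0599, 0.0705 and 0.0695). Pdk4, between Asb4 and Dync1i1, had 15 counts in control and 2 in knockout and was not tested. The paraoxonase genes Pon2 and Pon3 lie between Ppp1r9a and Asb4. Pon2 averaged 40.9 ± 1.81 CPM over control and 35.8 ± 5.92 CPM over knockout (adjusted p = 0.374), while Pon3 fell 7.83-fold (adjusted p = 0.0104), or 14.4-fold without knockout library 3. Beside Mest, Copg2, a coatomer subunit gene that overlaps Mest on the opposite strand, was at 59.0 ± 2.33 and 55.2 ± 8.93 CPM (adjusted p = 0.635). Cep41, a centrosomal gene on the other side, was at 10.4 ± 0.635 and 8.06 ± 2.38 CPM (adjusted p = 0.318), and Tsga13 and Cpa1 had no count in any library. Klf14, near Copg2, had 1 count in all after division by 11, in control, and Tfpi2, near Calcr, had none. The zero counts thus did not extend to Casd1, Bet1, Calcr, Pon2, Pon3, Dync1i1, Copg2 or Cep41.

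**Figure D2:**
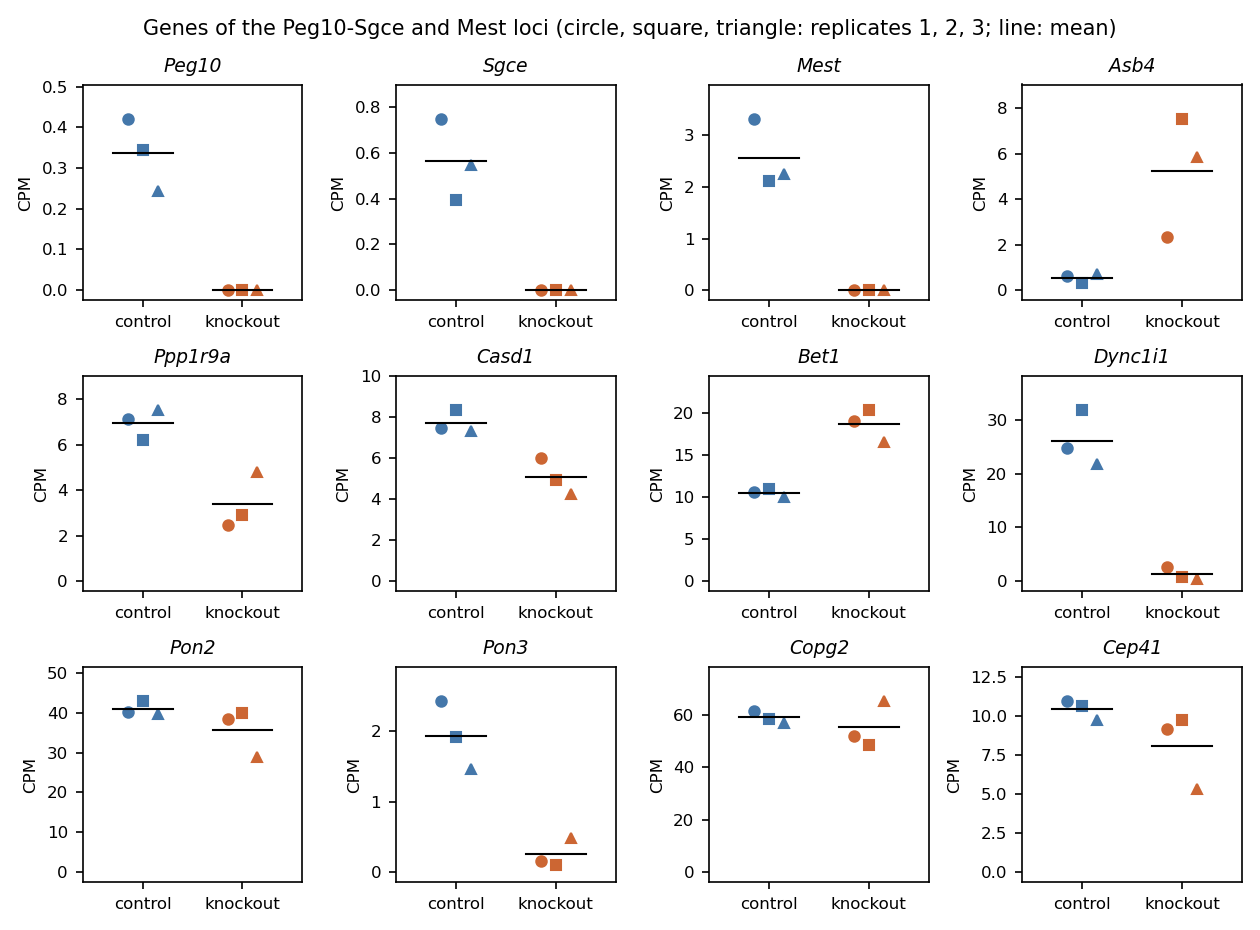
CPM in each library (linear axes that differ between panels, horizontal line at the group mean) for genes of the Peg10-Sgce and Mest loci. Peg10, Sgce and Mest are at 0 in all 3 knockout libraries, Asb4 is at 2.34 to 7.55 CPM there, and Copg2, which overlaps Mest, is at 48.4 to 65.3 CPM.

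Of the imprinted genes that act on IGF and insulin signalling, Grb10 fell, Igf2r rose and Igf2 was too low to test. IGF2 is a fetal growth factor that signals through the IGF1 receptor and the insulin receptor; IGF2R binds IGF2 without relaying a growth signal and carries it to lysosomes; GRB10 is an adaptor that dampens both signalling receptors. Grb10 stood at 20.5, 19.5 and 19.1 CPM across control, against 1.96, 0.392 and 0.735 CPM across knockout libraries 1, 2 and 3. All knockout libraries were far below control, and the control libraries were close to one another. Grb10 fell 19.1-fold (log2 fold change -4.25, SE 0.547, adjusted p = 0.0022), and 35.2-fold without knockout library 1. Its neighbour Cobl, an actin nucleator imprinted in some tissues, fell 9.76-fold, from 99.5 ± 4.75 to 10.2 ± 3.7 CPM (adjusted p = 0.000727). Cobl belongs to a list of other imprinted genes given below.

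Igf2r, the gene of the cation-independent mannose 6-phosphate receptor, stood at 182, 142 and 193 CPM across control, against 348, 290 and 417 CPM across knockout. The lowest knockout library lay above the highest control library. Igf2r rose 2.04-fold (log2 fold change 1.03, SE 0.19, adjusted p = 0.00788), with knockout library 3 the highest. Igf2 had no count in control and 3, 1 and 38 counts in knockout libraries 1, 2 and 3 after division by 11, or 0.163, 0.049 and 2.33 CPM. Nearly all of it came from knockout library 3. It was too low to test, and with no filter on low counts it did not pass (adjusted p = 0.107 by edgeR). Over the group Igf2 was at least 14.8-fold higher. The bound was 9.32-fold or 9.41-fold without control library 1 or 2, and 23.0-fold without knockout library 2. Without knockout library 3 it was 2.00-fold and rested on 4 counts against 0, whose own counting error it leaves out. As deposited its counts were 33, 11 and 418, the bound was 162-fold, and the test was not passed (adjusted p = 0.0582).

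**Figure D3:**
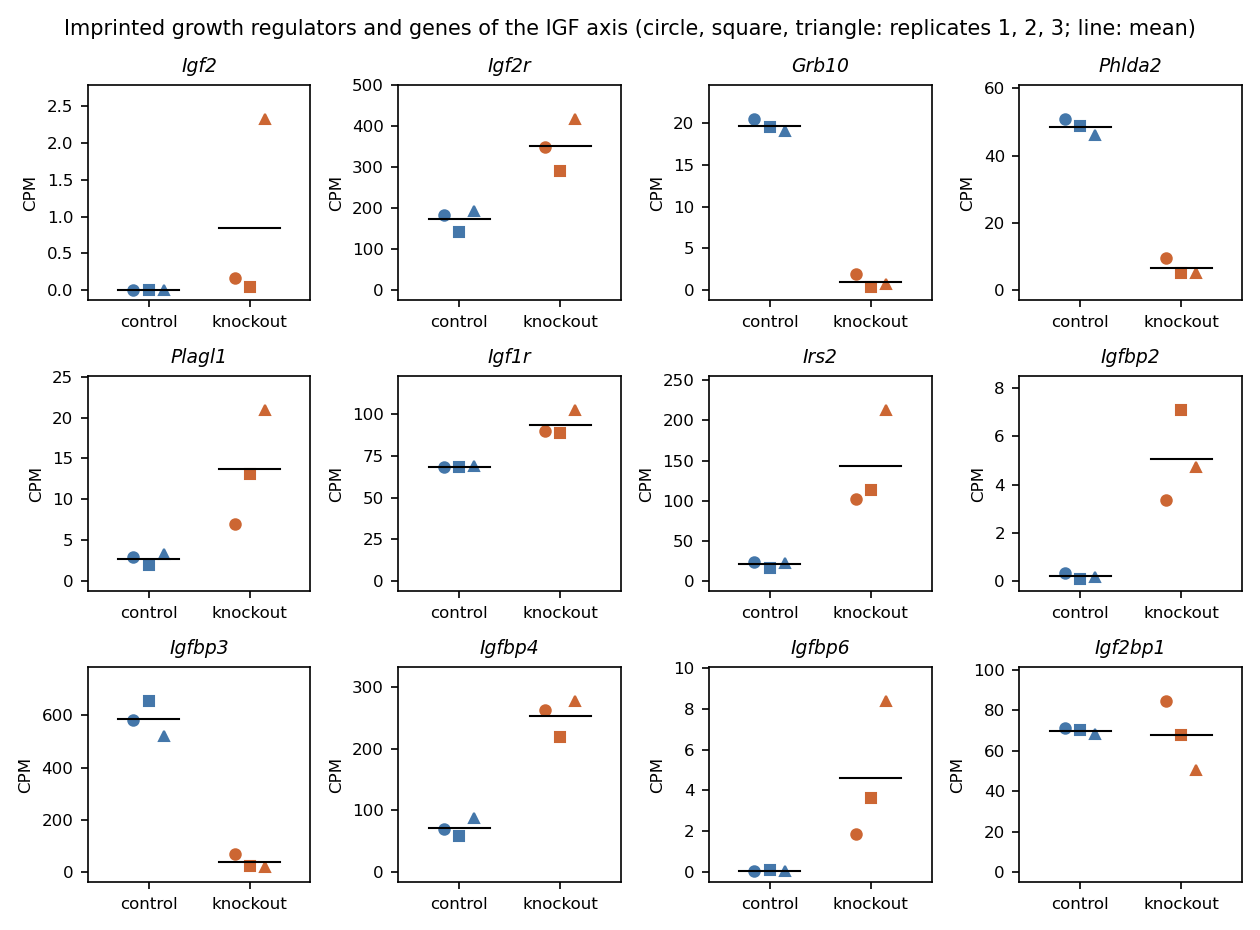
CPM in each library (linear axes that differ between panels, horizontal line at the group mean) for imprinted growth regulators and genes of the IGF axis; the Igf2 row was divided by 11. Grb10, Phlda2 and Igfbp3 are lower in all 3 knockout libraries than in any control library, Igf2r, Plagl1, Irs2, Igfbp2, Igfbp4 and Igfbp6 are higher, and Igf2 reaches 2.33 CPM in knockout library 3 alone.

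A list of 15 other genes of the IGF axis was chosen for their roles, with earlier results of these data known. Of the 15, 12 were tested. Of these, 5 rose, 1 fell and 6 did not pass (35.7% of all genes were called), with a median log2 fold change of 0.25. The IGF-binding proteins, which hold IGFs in the extracellular space, moved both ways. Igfbp3 fell 15.3-fold, from 586 ± 67.6 to 38.3 ± 27.6 CPM (adjusted p = 0.0024), or 26.1-fold without knockout library 1. Igfbp4 rose 3.52-fold, from 71.9 ± 14.6 to 253 ± 30.3 CPM (adjusted p = 0.00107). Igfbp2 rose 24.0-fold to 5.07 ± 1.89 CPM and Igfbp6 61.3-fold to 4.62 ± 3.38 CPM (adjusted p = 0.0016 and 0.00263). Igfbp6 was highest in knockout library 3, without which it rose 36.7-fold. Irs2, an adaptor downstream of the insulin and IGF1 receptors, rose 6.81-fold, from 20.97 ± 3.97 to 143 ± 61.1 CPM (adjusted p = 0.00173). The fifth gene that rose was the receptor gene Igf1r, 1.37-fold (adjusted p = 0.0203), named after its values were seen, and leaving out control library 1, 2 or 3 ended its call (adjusted p = 0.0811, 0.11 and 0.1).

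The Kcnq1ot1 domain holds maternally expressed genes that restrain growth. Phlda2, which encodes a small pleckstrin homology domain protein that limits placental growth, stood at 51.0, 48.7 and 46.2 CPM across control, against 9.65, 5.24 and 5.02 CPM across knockout. The groups were well apart, with knockout library 1 the highest of its group. Phlda2 fell 7.32-fold (log2 fold change -2.87, SE 0.283, adjusted p = 0.000944), the smallest adjusted p of the 16 imprinted genes tested. Cdkn1c, which encodes the cyclin-dependent kinase inhibitor p57, stood at 2.53, 0.884 and 1.34 CPM across control, against 0.545, 0.343 and 0.796 CPM across knockout. Its groups did not overlap, but control library 2 was close to knockout library 3, and it did not pass (log2 fold change -1.50, 95% interval -2.80 to -0.21, adjusted p = 0.0714). Without knockout library 3 it passed (adjusted p = 0.0358). Slc22a18, a membrane transporter gene, stood at 0.983, 0.147 and 0.122 CPM across control, against 0.872, 0.049 and 1.59 CPM across knockout (adjusted p = 0.558). The single libraries of each group spread over most of the same range. Ascl2, a transcription factor of trophoblast and intestinal stem cells, had 5 counts after division by 11, all in knockout library 1, and was not tested.

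Plagl1, a paternally expressed zinc finger transcription factor known to regulate other imprinted genes, rose. It stood at 2.9, 2.01 and 3.28 CPM across control, against 7.03, 13.03 and 20.9 CPM across knockout libraries 1, 2 and 3. Each knockout library was above every control library, with library 3 the highest. Plagl1 rose 5.00-fold (log2 fold change 2.32, SE 0.443, adjusted p = 0.00885), and 3.69-fold without knockout library 3. Dlk1, a transmembrane protein related to Notch ligands and a marker of fat cell precursors, had 3, 0 and 4 counts in control and 11, 9 and 6 in knockout libraries 1, 2 and 3. Its groups did not overlap in CPM, but it was too low to test, and it did not pass with no filter on low counts (adjusted p = 0.174). Of its neighbours, Dio3 had 7 counts in all, none of them in knockout, and Rtl1 had 3 counts after division by 11, none of them in control. Begain, a gene near Dlk1, had 2, 2 and 1 counts in control and 7, 22 and 56 in knockout libraries 1, 2 and 3, so its groups did not overlap. It was too low to test; it passed with no filter (adjusted p = 0.0169 by edgeR), and was tested and did not pass without control library 1, 2 or 3 (0.07, 0.0735 and 0.0772).

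**Figure D4:**
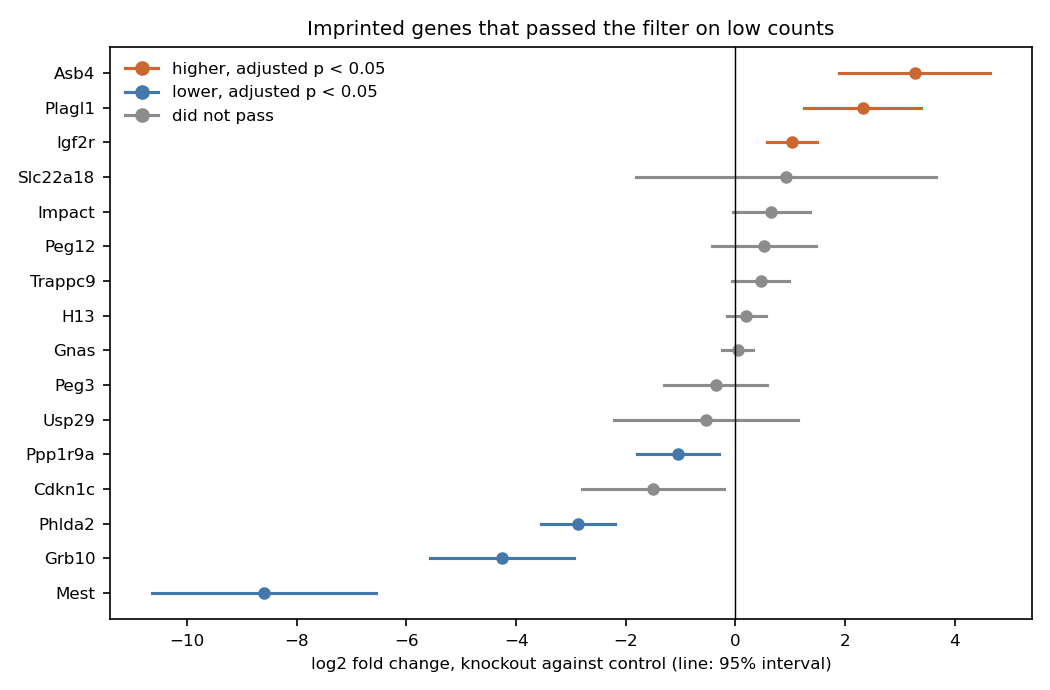
Log2 fold change of knockout against control with its 95% interval for the 16 imprinted genes tested. Asb4, Plagl1 and Igf2r passed as higher and Ppp1r9a, Phlda2, Grb10 and Mest as lower; the value of Mest rests on 0 counts in knockout and depends on the fit's prior count, and its bound is 47.7-fold.

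In the Peg3 domain no tested gene passed. Peg3, a paternally expressed zinc finger gene, stood at 36.2, 27.6 and 45.2 CPM across control, against 13.5, 33.03 and 38.4 CPM across knockout. Only knockout library 1 lay below the control range (log2 fold change -0.36, 95% interval -1.30 to 0.58, adjusted p = 0.507). Usp29, a gene of the ubiquitin protease family that shares its promoter region with Peg3, averaged 0.729 ± 0.423 CPM over control and 0.505 ± 0.325 CPM over knockout (adjusted p = 0.581). Zim1, a maternally expressed zinc finger gene of the same domain, had 4, 0 and 0 counts in control and 5, 43 and 92 counts in knockout libraries 1, 2 and 3. Its CPM of 0.272, 2.11 and 5.63 in knockout were above all control values, but knockout library 1 was close to control library 1 at 0.187 CPM. Zim1 did not pass the filter, since only 2 libraries had enough counts. With no filter it passed (adjusted p = 0.0353 by edgeR), as it did without knockout library 1 (0.0116); without control library 1, 2 or 3 it was tested and did not pass (0.0753, 0.112 and 0.109).

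Of the Prader-Willi region, Snrpn, Ndn and Magel2 had few counts and Peg12 was well counted. Snrpn, which encodes a splicing protein most abundant in brain, had 1 count in control and 4 in knockout after division by 11, a ratio of 4.22 with an exact 95% counting interval of 0.418 to 208. Snrpn and Snurf, which had no count in any library, share a transcript, and how the counting treated their reads is not given in the sources used here. Ndn, the gene of the growth suppressor necdin, had 1 count, in knockout library 3. Magel2, a MAGE family gene and adaptor of ubiquitin ligases, had 23 counts in knockout library 2, 3 in knockout library 3 and none elsewhere, at least 9.15-fold higher over the group. That bound rests on knockout library 2, without which both groups are at or under the floor, and was 5.77-fold or 5.83-fold without control library 1 or 2. Magel2 was too low to test, and with no filter on low counts it did not pass (adjusted p = 0.123 by edgeR). Peg12, a paternally expressed gene related to the FRAT proteins of WNT signalling, stood at 8.33, 9.87 and 9.6 CPM across control, against 12.9, 20.3 and 6.49 CPM across knockout. Knockout libraries 1 and 2 lay above control and library 3 below it, and it did not pass (log2 fold change 0.52, 95% interval -0.43 to 1.47, adjusted p = 0.346). Without knockout library 3 it rose 1.80-fold (adjusted p = 0.0119). Other imprinted genes of the region were counted in every library: the ubiquitin ligase gene Ube3a averaged 73.2 and 69.8 CPM over control and knockout, Atp10a 45.0 and 38.2 CPM, and Mkrn3 1.41 and 1.09 CPM, and none passed (adjusted p = 0.737, 0.318 and 0.401).

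Gnas, H13 and Trappc9, all well counted, did not pass the test. Gnas, which encodes the stimulatory G protein alpha subunit and other products from several promoters with different imprinting, stood at 1279, 1210 and 1170 CPM across control, against 1217, 1322 and 1234 CPM across knockout. The groups overlapped, and the 95% interval of its log2 fold change was -0.24 to 0.32 (adjusted p = 0.794). H13, the gene of signal peptide peptidase, was at 269 ± 19.6 and 308 ± 45 CPM (log2 fold change 0.20, 95% interval -0.16 to 0.56, adjusted p = 0.34). Without knockout library 3 it rose 1.24-fold (adjusted p = 0.0319). Trappc9, a subunit of a vesicle tethering complex, stood at 38.0, 35.0 and 34.5 CPM across control, against 37.6, 44.8 and 65.7 CPM across knockout (log2 fold change 0.46, 95% interval -0.06 to 0.99, adjusted p = 0.146). Its groups overlapped at knockout library 1.

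Impact, which encodes an inhibitor of the amino acid sensing kinase GCN2, stood at 6.93, 5.84 and 6.02 CPM across control, against 14.0, 7.79 and 7.9 CPM across knockout. The groups did not overlap, with knockout library 1 furthest from control, but it did not pass (log2 fold change 0.66, 95% interval -0.03 to 1.35, adjusted p = 0.122). Without knockout library 3 it passed (adjusted p = 0.0367). Slc38a4, an amino acid transporter gene, had 0, 0 and 1 counts in control and 10, 17 and 5 in knockout after division by 11, a ratio of 33.8 with an exact 95% counting interval of 5.65 to 1376. Without control library 3 the control group had no count and Slc38a4 was at least 7.93-fold higher. With all libraries it was not tested; it passed with no filter (adjusted p = 0.0172), as deposited (0.0299), without control library 3 (0.0391) and without knockout library 3 (0.00425), and did not pass without control library 1 or 2 (0.0533 and 0.0581). Nnat, the gene of neuronatin, had 1 count in each knockout library after division and none in control, too few for a fold. With no filter on low counts it did not pass (adjusted p = 0.164 by edgeR). As deposited, with 11 counts in each knockout library, it passed (adjusted p = 0.0127). Zdbf2 had no count in any library. The limit that a count of 0 allows in a single library, 3 counts, was 0.14 to 0.184 CPM.

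Set out by the copy that is usually expressed, 15 of the 33 genes are maternal, 17 paternal, and Gnas differs between its transcripts. Of 9 maternally expressed genes tested, Igf2r and Asb4 rose, Phlda2, Ppp1r9a and Grb10 fell, and 4 did not pass. Of 6 paternally expressed genes tested, Plagl1 rose, Mest fell, and 4 did not pass. Over all genes 35.7% were called. Another 9 paternally expressed genes had counts but too few to test, against 2 maternally expressed ones. No test was made of the difference between these groups of genes.

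A list of 49 further imprinted genes, chosen with earlier results of these data known, held 24 that were tested. Of these 4 rose, 3 fell and 17 did not pass, a share of 29.2% against 35.7% of all genes, with a median log2 fold change of -0.14. Among those that rose were Cd81, a tetraspanin gene of the Kcnq1ot1 domain, 2.44-fold to 237 ± 56.6 CPM (adjusted p = 0.00813), and Sfmbt2, a Polycomb group gene, 3.66-fold to 12.3 ± 5.31 CPM (adjusted p = 0.0115). The signalling adaptor gene Gab1 rose 2.50-fold and the phosphoinositide phosphatase gene Inpp5f 1.43-fold (adjusted p = 0.0133 and 0.0216). Blcap, the gene within which Nnat lies, fell 1.98-fold, from 28.6 ± 2.29 to 14.5 ± 2.04 CPM (adjusted p = 0.0052); Cobl and Pon3 are given above. Without control library 2 the number called was 4, with 18.4% of all genes called in that setting, and Sfmbt2, Gab1 and Inpp5f no longer passed (adjusted p = 0.0513, 0.066 and 0.126). Gab1 and Inpp5f were also lost without control library 3 (0.0617 and 0.0701), and Inpp5f without control library 1 (0.0859).

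Most of the listed genes of imprint maintenance and chromatin did not pass the test. Maintenance of imprints set by methylation depends on ZFP57 and ZFP445, which bind the methylated copy and recruit TRIM28 and SETDB1. It also depends on DNMT1 with UHRF1, which copy methylation after replication. CTCF and cohesin act at the unmethylated copy. The list of 37 genes, chosen with earlier results of these data known, also holds genes of de novo methylation and methylcytosine oxidation, such as Dnmt3b and Tet2. Of the 37, 34 were tested, 1 rose, 4 fell and 29 did not pass. The share called was 14.7% against 35.7% of all genes, with a median log2 fold change of -0.15. Tet2, which encodes an enzyme that oxidises methylcytosine, rose 4.80-fold, from 10.1 ± 1.73 to 48.5 ± 13.3 CPM (adjusted p = 0.00122). The de novo methyltransferase gene Dnmt3b fell 3.84-fold, from 6.86 ± 0.334 to 1.78 ± 1.15 CPM (adjusted p = 0.018), or 6.1-fold without knockout library 1. The histone demethylase genes Kdm1a and Kdm1b each fell 1.49-fold and Smchd1, a chromatin protein that silences some imprinted genes, 1.37-fold (adjusted p = 0.0175, 0.0209 and 0.0272). The number of these genes called was 2, 1 and 1 without control library 1, 2 or 3, and 9 without knockout library 3. The share of all genes called in those settings was 21.5%, 18.4%, 18.8% and 48.3%. Tet2 was among those called each time.

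Zfp57 averaged 27.8 ± 5.77 CPM over control and 19.1 ± 5.82 CPM over knockout (adjusted p = 0.158), and Trim28 at 508 ± 20 and 458 ± 47.3 CPM (adjusted p = 0.402). Uhrf1 and Dnmt1 were lowest in knockout library 3. Uhrf1 averaged 159 ± 2.45 CPM over control, against 132, 126 and 15.6 CPM across knockout libraries 1, 2 and 3 (adjusted p = 0.39). Dnmt1 averaged 313 ± 16 CPM over control, against 310, 265 and 133 CPM across the same libraries (adjusted p = 0.323). Without knockout library 3, Uhrf1, Hells, Ezh2 and Tdg passed as lower (adjusted p = 0.0194, 0.0133, 0.0025 and 0.0019).

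**Figure D5:**
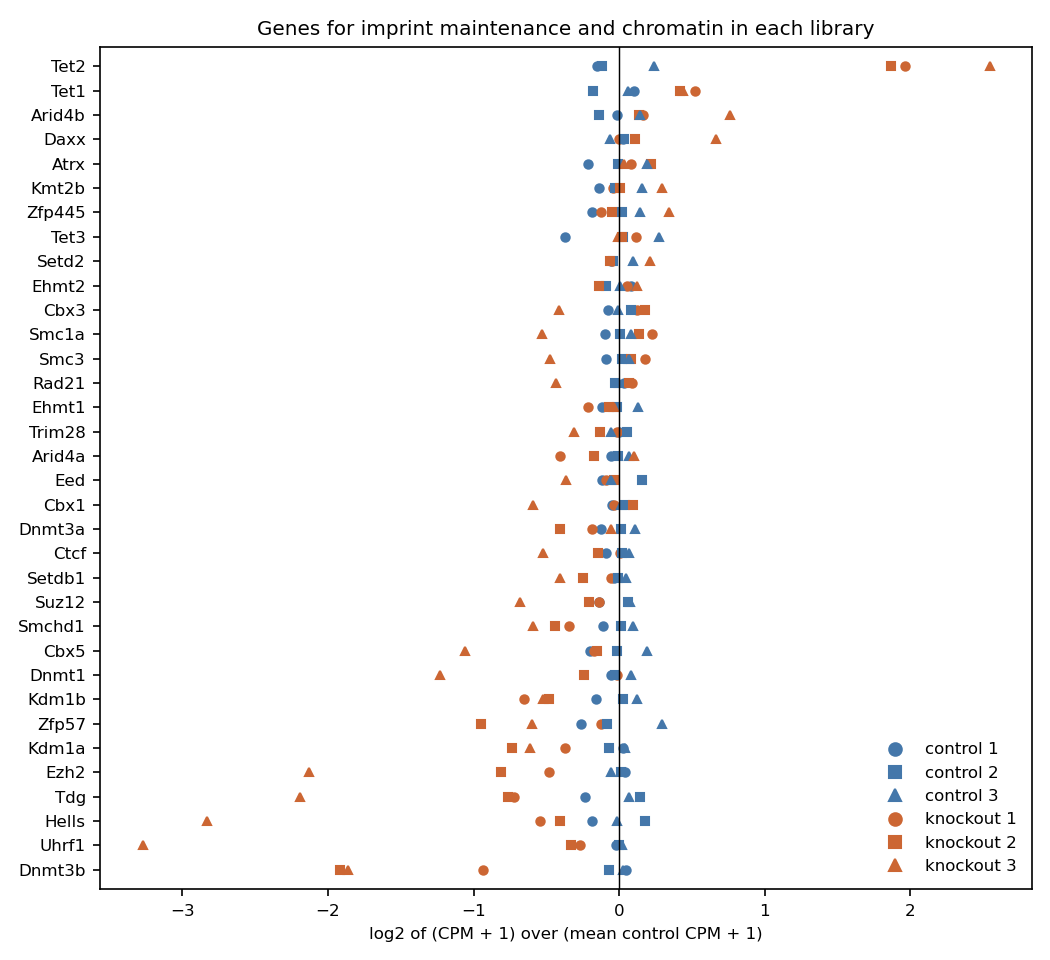
Log2 ratio of each library's CPM + 1 to the mean control CPM + 1 for the 34 genes of imprint maintenance and chromatin that were tested; blue symbols are control and orange symbols knockout libraries. Tet2 stands to the right in all 3 knockout libraries and Dnmt3b to the left, while Uhrf1, Hells, Tdg and Ezh2 are lowest in knockout library 3 (triangles).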

How the data were processed

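Bulk RNA-seq counts of 3 control and 3 HuR knockout libraries were analysed. The authors deposited whole-number counts per gene symbol; the submitters' processing notes list STAR 2.7.1a, featureCounts and hg38, giving no roles, although the symbols are of mouse. Annotation and strand use are not given in the sources analysed, so overlapping and antisense genes, such as Mest and Copg2 or Snrpn and Snurf, may share reads. Where control library 1 was 0 and another library was not (1704 rows), values were only multiples of 11 and were divided by it. No label explains this.

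Counts were fitted over the whole table with edgeR 4.0.16 in R 4.3.3 (filterByExpr, minimum count 10, TMM, robust quasi-likelihood test, Benjamini-Hochberg adjustment over 12293 genes). Alternatives used DESeq2 1.42.0 and limma 3.58.1. Standard errors were derived from the fold change and test statistic. Bounds put a floor of 3 counts over a group in place of 0 and take the other group's counts as exact. They leave out the counting error of those counts, so bounds from few counts are less firm than they read. Ratios with 1 to 3 counts use an exact 95% interval, which covers counting error only. No 2 libraries of a group were duplicates (chi-square at least 8.99 per degree of freedom). Whether replicate numbers pair the samples cannot be told from 3 libraries per group. Deviations of same-numbered libraries correlated at -0.0446, 0.294 and 0.0581, and those of differently numbered libraries at -0.253 to 0.184.

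Members and lists were chosen with earlier results of these data known. The 28 imprinted genes that were measured are all reported. From each list of other imprinted genes, imprint regulators and IGF axis genes, up to 4 called genes per direction with the smallest p are given. Others named were picked after their values were seen. No mouse sequence or coordinates were used here.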

Additional observations from a re-analysis of the deposited data

How the results depend on the processing

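For the 16 imprinted genes tested and Elavl1, 13 alternatives gave 221 values. Of these, 209 kept their direction and side of the threshold, 6 lost the call (all Ppp1r9a), 4 gained one (Cdkn1c, Peg12, H13 and Impact, without knockout library 3) and 2 changed sign near 0: log2 fold changes without 1 library lay between -0.0114 and 0.0728 for Gnas (the lowest without control library 3) and between -0.0888 and 0.00615 for Elavl1 (the highest without knockout library 3), never called. The number of imprinted genes higher in knockout was 3 and became 5 with no filter on low counts and 5 with the values as deposited; leaving out 1 library gave 3 to 7 higher and 3 to 6 lower. Leaving out 1 library gave 2312 to 6021 genes called over the whole table, 4 to 10 of the other imprinted genes, 1 to 9 of the imprint regulators and 5 to 6 of the IGF axis genes. The numbers of calls moved by no more than 1.5 times with RLE size factors, DESeq2, limma-voom or without the divided rows. The replicate block, which rests on shared numbers only, gave 3591 calls over the whole table and 3 higher and 3 lower imprinted genes; Ppp1r9a then had an adjusted p of 0.0544. Depth limits the genes with under about 10 counts per library, Peg10, Dlk1, Snrpn and Ndn among them. For these, a count of 0 in a library cannot be told from a low level.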
